A study of Mus musculus with 20 samples.

Results

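The 9 genes described here encode enzymes that make, balance or clean the nucleotides from which DNA is copied: Rrm1, Rrm2, Tyms, Tk1, Dut, Shmt1, Dctpp1, Paics and Umps. They were picked by name for that role out of 18193 genes that the array names, and 25 probe sets matched them alone. They were measured in mouse lenses from 4 groups of 5 mice, with both lenses of a mouse pooled into TRIzol and hybridised to its own Affymetrix mouse array. The TKO groups carried Cry-Cre with E2F1-/-, E2F2-/- and a floxed E2F3 (E2F3f/f), at birth (TKO P0) and in late embryos (TKO E17.5). The control groups at the same stages (control P0, control E17.5) were E2F2-/- and their labels list none of the other alleles, so that loss of E2F2 was shared by all 20 mice and the Cre transgene was not. The labels do not spell out which cells express Cry-Cre, and no Cre-only group was analysed here. They give the cell type as epithelial, while the dissection protocol describes whole lenses.

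Ribonucleotide reductase, built from the large subunit Rrm1 and the small subunit Rrm2, turns ribonucleotides into deoxyribonucleotides and is the main supply of DNA precursors in dividing cells. Thymidine nucleotides are made from deoxyuridine nucleotides by thymidylate synthase (Tyms), with carbon units to which Shmt1 contributes, or salvaged by thymidine kinase 1 (Tk1), while Dut and Dctpp1 hydrolyse dUTP and dCTP species and Paics and Umps serve the making of purines and of UMP. E2F1, E2F2 and E2F3 are transcription factors best known as activators of S-phase genes, and Rrm1, Rrm2, Tyms and Tk1 are textbook E2F target genes. In the lens, dividing cells lie in the epithelium and fibre cells leave the cell cycle as they differentiate.

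The stretches just upstream of the 6 genes that passed the test at P0 are shown because the factors deleted here act at promoters. Each holds the 150 bases before the annotated start, 5′ to 3′ along the gene (RefSeq, GRCm38.p6), with capitals on the CCAAT box in either orientation (CCAAT or ATTGG) and on the E2F word TTCCCGC and its variants, which read TTCGCGC in 1 form, TTGCCGC in another and TTGGCGC in the last, searched on both strands.
Rrm1 (chr7:102441545-102441694, plus strand): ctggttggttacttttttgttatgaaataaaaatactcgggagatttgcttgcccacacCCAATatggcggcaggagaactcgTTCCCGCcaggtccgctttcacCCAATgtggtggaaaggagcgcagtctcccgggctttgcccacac
Rrm2 (chr12:24708104-24708253, plus strand): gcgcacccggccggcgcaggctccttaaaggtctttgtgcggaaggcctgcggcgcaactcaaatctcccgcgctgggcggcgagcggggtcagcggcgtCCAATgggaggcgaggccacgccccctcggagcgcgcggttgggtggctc
Shmt1 (chr11:60811266-60811415, minus strand): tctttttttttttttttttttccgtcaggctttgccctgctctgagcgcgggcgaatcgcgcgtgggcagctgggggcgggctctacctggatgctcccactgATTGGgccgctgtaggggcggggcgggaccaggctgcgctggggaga
Dctpp1 (chr7:127260668-127260817, minus strand): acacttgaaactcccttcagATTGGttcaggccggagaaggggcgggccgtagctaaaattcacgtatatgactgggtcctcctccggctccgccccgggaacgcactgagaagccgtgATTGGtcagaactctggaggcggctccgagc
Paics (chr5:76951152-76951301, plus strand): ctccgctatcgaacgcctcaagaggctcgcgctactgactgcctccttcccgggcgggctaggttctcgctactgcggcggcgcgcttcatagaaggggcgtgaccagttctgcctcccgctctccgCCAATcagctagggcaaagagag
Umps (chr16:33967039-33967188, minus strand): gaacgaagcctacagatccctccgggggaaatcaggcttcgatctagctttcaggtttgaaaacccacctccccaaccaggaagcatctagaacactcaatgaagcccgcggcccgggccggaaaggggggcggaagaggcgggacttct
In the longer window from 250 bases before to 50 after the start, all 9 genes had a RefSeq promoter. CCAAT was present on either strand in 5 of the 9 (Rrm1, Rrm2, Shmt1, Dctpp1 and Paics), against 37.4% of 32851 promoters of that length. An E2F word of 7 letters lay in 3 of the 9 (Rrm1, Rrm2 and Shmt1), against 9.57% of all promoters, and in Rrm2 and Shmt1 it lay outside the stretch printed above. With 1 more T in front of each word, the search first made, 0 of the 9 held it, against 2.26% of all promoters. CACGTG was found upstream of Tyms and Paics, against 7.15% of all promoters. These are matches of letters in a window and not measured sites.

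Values are log2 signals as deposited, and array medians lay between 5.05 and 5.25. A gene was tested when its brightest probe set exceeded the array median on at least 5 of 20 arrays, which left 11859 genes, and each pair of groups was fitted on its own 10 arrays with limma. Differences with a Benjamini-Hochberg adjusted p below 0.05 over those genes are called passed. The probes for E2f1 and E2f3 do not show the deletion. E2f1 averaged 7.79 ± 0.14 in TKO P0 and 7.34 ± 0.14 in control P0 lenses, and 7.81 ± 0.17 in TKO E17.5 and 7.21 ± 0.040 in control E17.5 lenses (SD, n = 5 each), while E2f3 did not pass at either stage. E2f2 did not pass either, but E2F2-/- was shared by all 20 mice, so a comparison of genotypes could not show its loss. The labels and annotation do not place the probes of these 3 genes against the deleted exons, so they check no label. Lens markers were above the array median on every array, 15 of 15. The summed level of 20 retina markers, as a mean per array, was 6.18 to 7.13 in TKO P0, 4.85 to 6.10 in control P0, 5.68 to 7.65 in TKO E17.5 and 5.56 to 6.44 in control E17.5 lenses. TKO E17.5 replicates 25 and 26 were the 2 arrays highest in these markers. TKO E17.5 replicates 24 and 27 correlated more closely with the control E17.5 arrays (mean r 0.990 and 0.993) than with their own group (0.985 and 0.988).

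**Figure D1:**
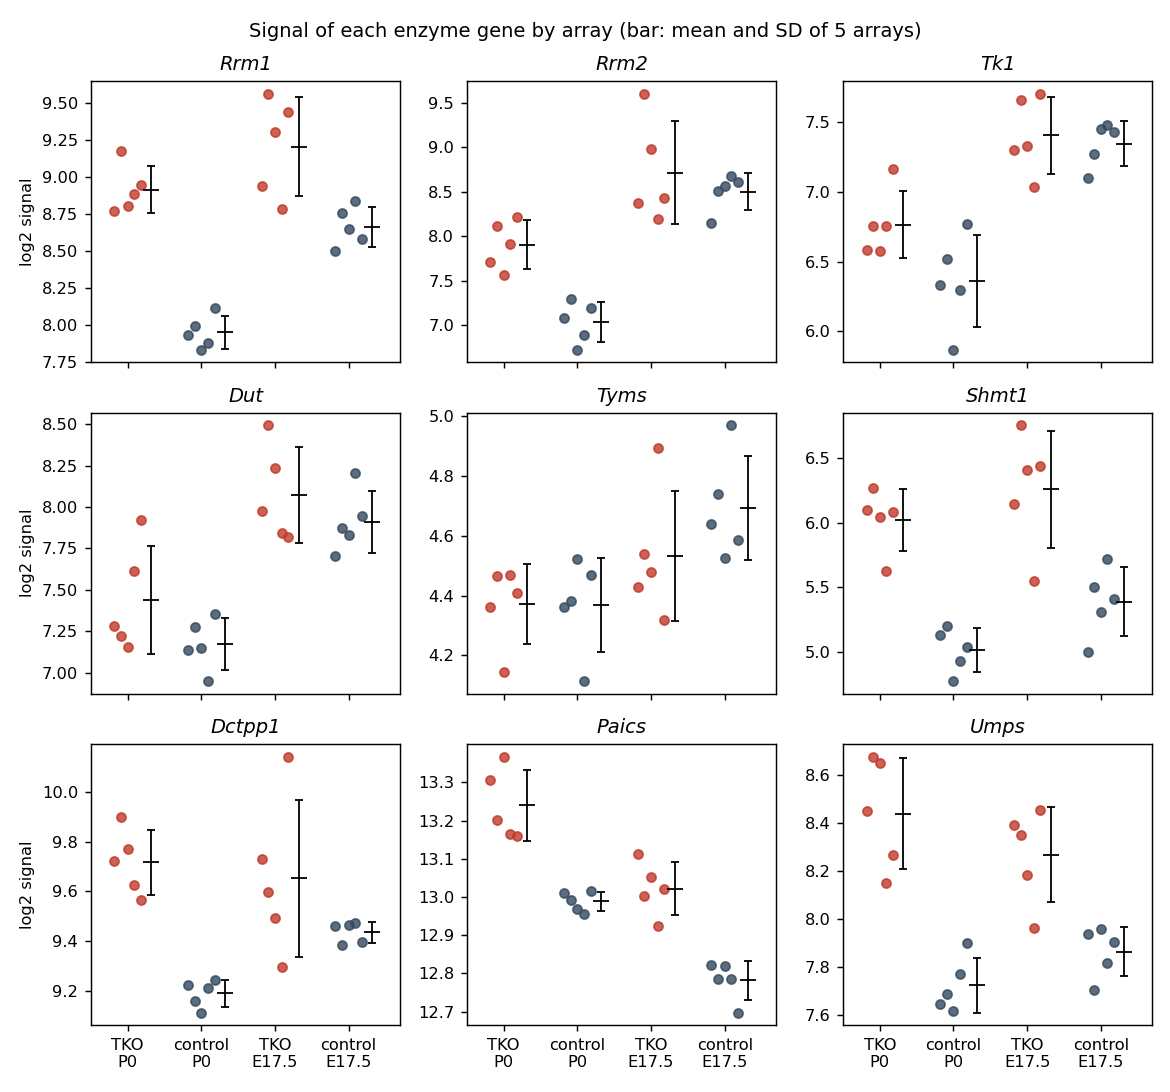
Log2 signal of the brightest probe set of each of the 9 genes on every array, with points for arrays and bars for the mean and SD of 5 arrays, each panel on its own scale. At P0 the TKO points of Rrm1, Rrm2, Shmt1, Dctpp1, Paics and Umps lie above all control points, and those of Tk1, Dut and Tyms overlap the controls.

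The first comparison was whether RNA for these enzymes differed between newborn TKO and control lenses. Of the 8 members that passed the filter, 6 rose in TKO P0 lenses and 0 fell, where 39.6% of all tested genes passed and 20.2% rose. Shmt1 met the filter only through the TKO arrays, and of the 7 members that also met it on control arrays alone, 5 rose and 0 fell. Of these, Rrm1 and Rrm2 rose by 1.95- and 1.83-fold, Umps and Dctpp1 by less, and Paics by 1.19-fold. Tk1 and Dut were not separated from the controls and Tyms was too dim to test. The median change was 0.62 on the log2 scale over the 8 and 0.53 over the 7, against -0.01 over all genes tested. In whole lenses, more cells of a dividing type and more RNA per cell cannot be told apart.

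Both subunits of ribonucleotide reductase were higher. Rrm1 read 8.77, 9.17, 8.80, 8.88 and 8.95 in the 5 TKO P0 lenses, against 7.93, 7.99, 7.83, 7.88 and 8.11 in the 5 control P0 lenses. The groups lay far apart, with the lowest TKO array well above the highest control. The difference was 0.97 ± 0.085 (log2, SE), or 1.95-fold, with a limma adjusted p of 6.71e-05. A second Rrm1 probe set read 8.39 to 8.67 in TKO P0 and 6.81 to 7.49 in control P0 lenses, a difference of 1.44 ± 0.12 (limma adjusted p = 3.80e-05 with every probe set tested), while the third reached at most 3.03 on any array. Both detected Rrm1 probe sets separated the newborn groups, by unequal amounts.

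Rrm2, the subunit whose abundance is tied to S phase, read 7.71, 8.12, 7.56, 7.91 and 8.22 in TKO P0 lenses, against 7.08, 7.29, 6.72, 6.89 and 7.19 in control P0 lenses. The groups did not overlap, and TKO replicate 19 was the lowest of its group. The difference was 0.87 ± 0.14, or 1.83-fold (limma adjusted p = 0.00109). Its other probe sets gave 1.01 ± 0.18 and 0.88 ± 0.21 (limma adjusted p = 0.00144 and 0.00650). All 3 Rrm2 probe sets passed in the same direction.

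Rrm2b, a second small subunit that serves cells outside S phase and the response to DNA damage and is not among the 9, went the other way. It read 7.46, 7.08, 7.30, 7.57 and 7.53 in TKO P0 lenses, against 7.80, 7.79, 7.72, 7.81 and 7.69 in control P0 lenses. All TKO arrays lay below all controls, and Rrm2b fell by 0.37 ± 0.090 on the log2 scale (limma adjusted p = 0.00775). A dimmer Rrm2b probe set did not pass (-0.07 ± 0.14, limma adjusted p = 0.721).

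Of the thymidylate genes, Shmt1 passed the test, on a probe set that is dim in the controls. Shmt1, the cytosolic serine hydroxymethyltransferase, read 6.10, 6.27, 6.04, 5.63 and 6.09 in TKO P0 lenses, against 5.13, 5.20, 4.78, 4.93 and 5.04 in control P0 lenses. The TKO arrays lay above all controls, and replicate 21 was the lowest of them. The difference was 1.01 ± 0.12 (log2, SE; limma adjusted p = 0.000237). This probe set exceeded the array median on the 10 TKO arrays and 4 of the 10 control arrays, so that it entered the test through the group where it is high. On every control P0 array it lay below the array median, and its difference is measured over those arrays. The same holds for a second probe set, above the median on 10 TKO and 3 control arrays (1.01 ± 0.12, limma adjusted p = 0.000244). The 2 probe sets that met the filter on control arrays alone, above the median on 10 and 7 of them, gave the smaller differences of 0.25 ± 0.091 and 0.41 ± 0.12 and passed (limma adjusted p = 0.0439 and 0.0236). Averaged over its probe sets, the Shmt1 difference was 0.67 ± 0.082.

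Tk1, the thymidine salvage kinase of S phase, read 6.59, 6.76, 6.57, 6.75 and 7.16 in TKO P0 lenses, against 6.34, 6.52, 5.87, 6.30 and 6.77 in control P0 lenses. The groups overlapped, and control replicate 8 exceeded 4 of the 5 TKO arrays. The difference of 0.41 ± 0.16 did not pass (limma adjusted p = 0.0636), and it did pass without control replicate 8 (0.51 ± 0.15, limma adjusted p = 0.0249), with all 20 arrays in the fit (0.0475) and with array weights (0.0438).

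Dut, which removes dUTP, read 7.28, 7.22, 7.15, 7.62 and 7.92 in TKO P0 lenses, against 7.14, 7.28, 7.15, 6.95 and 7.36 in control P0 lenses. TKO replicates 21 and 22 were above every control and the other TKO arrays were among the controls. The difference of 0.27 ± 0.14 did not pass (limma adjusted p = 0.161), and a second Dut probe set was below the array median throughout.

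Tyms did not meet the filter. Its brightest probe set read 4.14 to 4.47 in TKO P0 and 4.11 to 4.52 in control P0 lenses, and none of its 4 probe sets exceeded the array median on any array. At E17.5 it read 4.32 to 4.89 in TKO and 4.53 to 4.97 in control lenses. A further probe set, annotated to Tyms together with Tyms-ps, was not used. The genotypes overlapped at both stages, which at this signal is not a measure of the absence of a difference. Between the stages, every control P0 array lay below every control E17.5 array. That step lay wholly under the array median and was not among the tested changes.

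Dctpp1, the dCTP pyrophosphatase that trims the cytidine nucleotide pool, read 9.72, 9.90, 9.77, 9.63 and 9.56 in TKO P0 lenses, against 9.23, 9.16, 9.11, 9.21 and 9.24 in control P0 lenses. The controls were tight and all TKO arrays lay above them. The difference was 0.53 ± 0.068, or 1.44-fold (limma adjusted p = 0.000364), from its only probe set.

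Both members of de novo synthesis rose. Umps, which carries the last steps to UMP, read 8.45, 8.67, 8.65, 8.15 and 8.26 in TKO P0 lenses, against 7.65, 7.69, 7.62, 7.77 and 7.90 in control P0 lenses. TKO replicates 21 and 22 were nearest to the controls and still above them. The difference was 0.71 ± 0.11, or 1.64-fold (limma adjusted p = 0.000696). A second Umps probe set gave 0.17 ± 0.078 and did not pass (limma adjusted p = 0.101), and averaged over its probe sets the gene differed by 0.29 ± 0.063 (limma adjusted p = 0.00497).

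Paics, a bifunctional enzyme of purine synthesis, read 13.31, 13.20, 13.37, 13.16 and 13.16 in TKO P0 lenses, against 13.01, 12.99, 12.97, 12.96 and 13.02 in control P0 lenses. The groups did not overlap, and the step between them was small. The difference was 0.25 ± 0.056, or 1.19-fold (limma adjusted p = 0.00508). The other Paics probe sets gave 0.15 ± 0.068 and -0.09 ± 0.11 and neither passed (limma adjusted p = 0.103 and 0.569), and averaged over its probe sets the gene did not pass (0.10 ± 0.070, limma adjusted p = 0.268).

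The groups were separated without overlap, TKO P0 above control P0, for these 6 genes, where 13.2% of all tested genes were so separated. Of the 6, Rrm1, Rrm2, Dctpp1, Paics and Umps met the filter on control arrays alone. Shmt1 met it only through the TKO arrays, so its separation and its calls do not count as support. Several lists of markers of other tissues also differed between the same arrays. At P0, 13 of 16 tested retina markers rose and 1 fell, and 7 of 8 tested pigment cell markers rose and 0 fell. Rcvrn, Ptf1a, Dlx1 and Dlx2 of the retina list and Rpe65 and Gpr143 of the pigment list did not pass the filter. Of 8 tested macrophage markers 4 rose and 0 fell, with a median of 0.90, while Ptprc, Aif1 and Cd68 of that list did not pass the filter. Of 12 endothelium and pericyte markers 0 rose and 1 fell (median -0.31), and of 3 tested red blood cell markers 1 rose and 0 fell (median 0.13). The pigment list averaged 6.68 to 7.38 in TKO P0 and 5.66 to 6.05 in control P0 lenses, and the macrophage list 5.81 to 6.56 in TKO P0 and 5.01 to 6.14 in control P0 lenses. With each array's mean retina marker level in the model, Rrm1 differed by 0.95 ± 0.14, Rrm2 by 0.86 ± 0.24, Shmt1 by 1.13 ± 0.19, Dctpp1 by 0.53 ± 0.11 and Umps by 0.89 ± 0.16. These 5 passed (limma adjusted p = 0.00813, 0.0433, 0.0121, 0.0205 and 0.0136), where 7.74% of all genes rose in that model, and Paics no longer passed (0.29 ± 0.092, limma adjusted p = 0.0667). The retina marker level itself did not overlap between TKO P0 (6.18 to 7.13) and control P0 arrays (4.85 to 6.10). That model therefore cannot tell the marker level apart from genotype at P0. The part of pigment cells, of macrophages and of the other marker lists in the result was not tested. The Gapdh control probe sets, a sign of RNA integrity, differed between 5′ and 3′ ends by 0.147 to 0.195 in TKO P0 and by -0.046 to 0.060 in control P0 lenses, and by 0.100 to 0.200 in TKO E17.5 and by -0.060 to -0.019 in control E17.5 lenses. The genotypes did not overlap in this measure at either stage, and its part in the differences at P0 and at E17.5 was not tested.

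**Figure D2:**
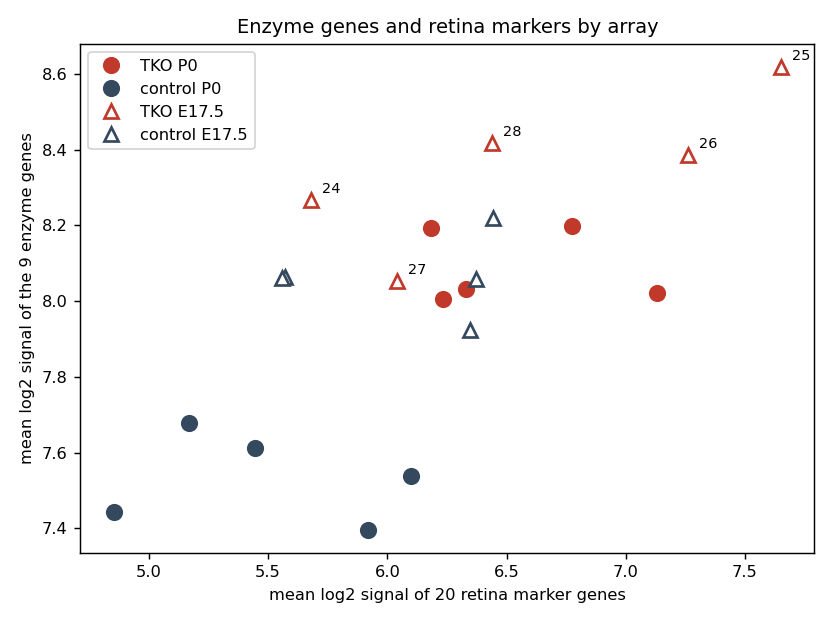
Mean log2 signal of the 9 enzyme genes (vertical axis) against the mean log2 signal of 20 retina marker genes (horizontal axis), 1 point per array, with the TKO E17.5 replicates numbered. The TKO P0 arrays lie at 8.01 to 8.20 on the vertical axis and the control P0 arrays at 7.40 to 7.68, and the TKO E17.5 arrays spread most along both axes.

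At E17.5 the same question gave smaller and less certain differences. None of the 8 tested members passed, where 2.89% of all tested genes passed and 1.59% rose, and 3041 genes had an unadjusted p under 0.05. All 8 estimates were above 0, though those of Rrm2, Tk1 and Dut changed sign under some alternatives, with a median of 0.23 against -0.03 over all genes. Shmt1 (0.87 ± 0.21), Rrm1 (0.54 ± 0.15), Umps (0.40 ± 0.099) and Paics (0.24 ± 0.060) came nearest, with limma adjusted p of 0.0503, 0.0667, 0.0552 and 0.0573. These 4 passed in a model of all 20 arrays, where 5.54% of all genes rose, and also without TKO replicate 27 (limma adjusted p = 0.00674, 0.0177, 0.0115 and 0.0296), where 4.39% of all genes rose. Of the 4, Shmt1 met the filter only through the TKO arrays.

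Rrm1 read 8.94, 9.56, 9.30, 8.78 and 9.44 in TKO E17.5 lenses, against 8.50, 8.75, 8.65, 8.84 and 8.58 in control E17.5 lenses. TKO replicate 27 lay among the controls and the other TKO arrays lay above them. The second Rrm1 probe set read 8.73, 9.25, 9.12, 8.32 and 8.84 in TKO E17.5 and 7.45, 7.78, 7.85, 7.79 and 7.74 in control E17.5 lenses. It separated the groups fully and passed in the fit of every probe set (1.13 ± 0.16, limma adjusted p = 0.00300).

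Rrm2 read 8.38, 9.60, 8.98, 8.20 and 8.43 in TKO E17.5 lenses, against 8.15, 8.51, 8.57, 8.68 and 8.61 in control E17.5 lenses. TKO replicates 25 and 26, the arrays highest in retina markers, were above every control and the other TKO arrays were among them. The difference was 0.21 ± 0.24 (limma adjusted p = 0.591), and without those 2 arrays it was -0.17 ± 0.12 (limma adjusted p = 0.427). With all arrays, the other Rrm2 probe sets gave 0.64 ± 0.23 and 0.23 ± 0.24. Neither passed in the fit of every probe set (limma adjusted p = 0.106 and 0.551).

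Shmt1 read 6.15, 6.75, 6.41, 5.55 and 6.44 in TKO E17.5 lenses, against 5.0, 5.50, 5.31, 5.72 and 5.41 in control E17.5 lenses. As for Rrm1, replicate 27 alone among the TKO arrays lay within the control range. Another Shmt1 probe set passed in the fit of every probe set (0.65 ± 0.13, limma adjusted p = 0.0160). It was above the array median on 10 TKO and 3 control arrays, so it too entered through the group where it is high. The 2 probe sets that met the filter on control arrays alone gave 0.36 ± 0.11 and 0.25 ± 0.15. Neither of these passed (limma adjusted p = 0.0666 and 0.283).

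Umps read 8.39, 8.35, 8.18, 7.96 and 8.45 in TKO E17.5 lenses, against 7.94, 7.71, 7.96, 7.82 and 7.91 in control E17.5 lenses. Paics read 13.11, 13.002, 13.05, 12.92 and 13.02 in TKO E17.5 lenses, against 12.82, 12.79, 12.82, 12.79 and 12.70 in control E17.5 lenses. On these brightest probe sets all TKO arrays were above all controls, where 9.95% of all genes had groups that did not overlap in either direction. For Umps the groups nearly touched, with the lowest TKO E17.5 array at 7.964 and the highest control E17.5 array at 7.959. A second Umps probe set gave 0.19 ± 0.096 (limma adjusted p = 0.221). The other Paics probe sets gave 0.17 ± 0.065 and -0.02 ± 0.067 (limma adjusted p = 0.121 and 0.855). Averaged over probe sets, Umps differed by 0.22 ± 0.063 and Paics by 0.13 ± 0.053, and neither passed (limma adjusted p = 0.0696 and 0.151).

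Dctpp1 read 9.73, 9.60, 9.49, 9.30 and 10.14 in TKO E17.5 lenses, against 9.46, 9.39, 9.47, 9.47 and 9.40 in control E17.5 lenses. Replicate 28 stood highest and replicate 27 lowest of the TKO arrays, around a narrow control range (0.22 ± 0.13, limma adjusted p = 0.313). Tk1 read 7.03 to 7.70 in TKO E17.5 and 7.10 to 7.48 in control E17.5 lenses (0.06 ± 0.13, limma adjusted p = 0.804). Dut read 7.82 to 8.49 in TKO E17.5 and 7.70 to 8.20 in control E17.5 lenses (0.16 ± 0.14, limma adjusted p = 0.478). Tk1 and Dut, the members that did not pass at P0, were also the smallest here. With the retina marker level in the model, or without replicates 25 and 26, 0 of the 8 members passed at E17.5, where 0.683% of all genes rose with the marker level in the model.

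**Figure D3:**
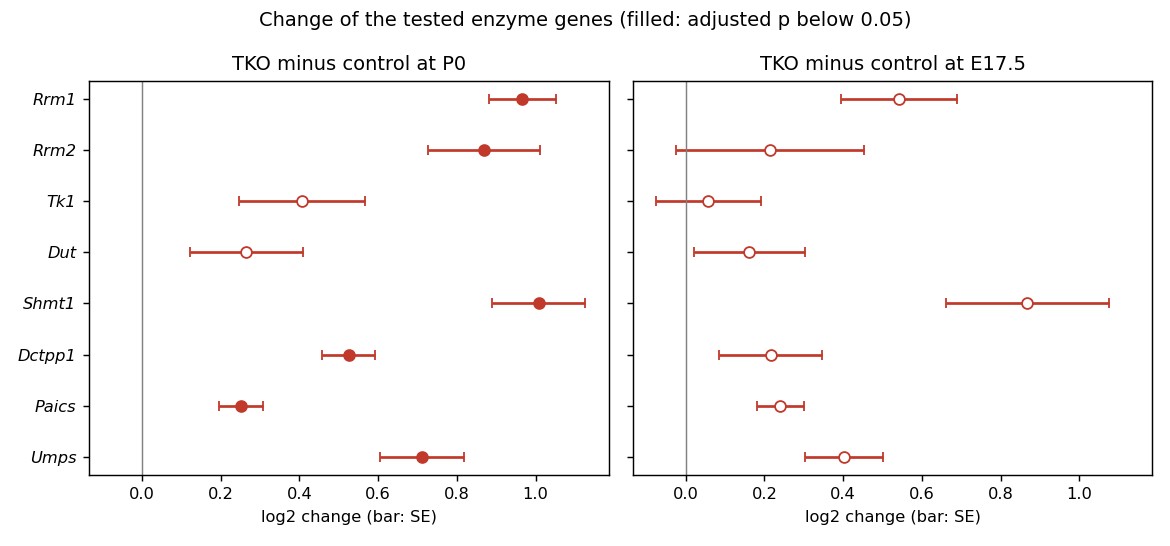
Log2 change, TKO minus control, of the 8 tested genes at P0 (left) and E17.5 (right), with bars for the SE and filled points where the limma adjusted p was below 0.05. At P0 the changes run from 0.25 for Paics to 1.01 for Shmt1 with 6 filled points, and at E17.5 from 0.06 for Tk1 to 0.87 for Shmt1 with 0 filled points.

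Whether the 2 stages differ in the TKO effect was tested directly on all 20 arrays. None of the 8 members passed, where 0.177% of all genes passed and 1866 had an unadjusted p under 0.05. The TKO effect at P0 minus that at E17.5 was estimated at 0.65 ± 0.29 for Rrm2 (limma adjusted p = 0.291) and 0.42 ± 0.17 for Rrm1 (limma adjusted p = 0.252). For Tk1 the difference of effects was 0.35 ± 0.22, for Dctpp1 0.31 ± 0.15 and for Umps 0.31 ± 0.15. For Shmt1 (0.14 ± 0.25), Dut (0.10 ± 0.21) and Paics (0.01 ± 0.075) the estimates were within 1 SE of 0. The passing of 6 genes at P0 and 0 at E17.5 does not by itself show that the stages differ. Without TKO E17.5 replicates 25 and 26, left out as the arrays highest in retina markers, the Rrm2 difference was 1.04 ± 0.20 (limma adjusted p = 0.0303), and without replicate 28 the Dctpp1 difference was 0.43 ± 0.10 (limma adjusted p = 0.0476). These were also the arrays at which Rrm2 and Dctpp1 were highest in their group, so that leaving them out had to enlarge the difference of effects, and both values are given as descriptions only.

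The controls show how these genes change from the embryo to birth. In control lenses, 6 of 8 members fell at P0 and 1 rose, where 37.4% of all genes passed, 24.9% fell and 12.5% rose. Shmt1, among those that fell, met the filter only through the TKO arrays. Of the 7 members that met it on control arrays alone, 5 fell and 1 rose. Rrm2 averaged 7.03 ± 0.23 in control P0 and 8.50 ± 0.21 in control E17.5 lenses (SD, n = 5 each) and fell by 1.47 ± 0.12 on the log2 scale (limma adjusted p = 4.40e-05). Tk1 averaged 6.36 ± 0.33 in control P0 and 7.35 ± 0.16 in control E17.5 lenses and fell by 0.99 ± 0.14 (limma adjusted p = 0.000539). These were the largest stage differences among the 8, a 2.77-fold and a 1.98-fold step. Other markers moved between the same arrays: 6 of 16 retina markers fell and 1 rose (median -0.54), 3 of 8 macrophage markers fell and 0 rose (median -0.82), 2 of 3 red blood cell markers fell and 0 rose (median -1.36), and 10 of 15 lens markers rose and 0 fell. Their part in the stage differences of the members was not tested, other than with the retina marker level as a covariate, under which Shmt1 no longer passed (-0.35 ± 0.15, limma adjusted p = 0.106).

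Dut averaged 7.17 ± 0.16 in control P0 and 7.91 ± 0.19 in control E17.5 lenses and fell by 0.74 ± 0.098 (limma adjusted p = 0.000316). Rrm1 averaged 7.95 ± 0.11 in control P0 and 8.66 ± 0.14 in control E17.5 lenses and fell by 0.71 ± 0.074 (limma adjusted p = 9.97e-05). For Rrm1, Rrm2, Tk1, Dut and Dctpp1 all control P0 arrays lay below all control E17.5 arrays, a separation shared by 17.2% of all genes tested. The untested Tyms was separated in the same direction. Dctpp1 fell by 0.25 ± 0.041 (limma adjusted p = 0.00113), a call lost with all 20 arrays in the fit (limma adjusted p = 0.121). Shmt1 averaged 5.02 ± 0.17 in control P0 and 5.39 ± 0.26 in control E17.5 lenses and fell by 0.37 ± 0.12 (limma adjusted p = 0.0349), a call lost under 9 of 19 alternatives, among them leaving out control P0 replicate 6, 7 or 8 or control E17.5 replicate 11, 12, 13 or 15 (limma adjusted p = 0.0507 to 0.0790). The Shmt1 probe set above the array median on all 20 arrays gave -0.02 ± 0.077 and did not pass (limma adjusted p = 0.840). Its remaining probe sets gave -0.44 ± 0.12 and -0.39 ± 0.087 and passed (limma adjusted p = 0.0142 and 0.00592).

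Of the members of de novo synthesis, Paics rose and the call of Umps depended on the fit. Paics averaged 12.99 ± 0.026 in control P0 and 12.78 ± 0.050 in control E17.5 lenses and rose by 0.21 ± 0.038 (limma adjusted p = 0.00200). Umps averaged 7.73 ± 0.11 in control P0 and 7.87 ± 0.10 in control E17.5 lenses and did not pass (-0.14 ± 0.067, limma adjusted p = 0.122). It passed, as a fall, with the retina marker level in the model (-0.23 ± 0.066, limma adjusted p = 0.0260) and without control P0 replicate 8 (-0.18 ± 0.061, limma adjusted p = 0.0393), and averaged over its probe sets it was at 0.0022. Rrm2b rose in the controls, by 0.21 ± 0.043 (limma adjusted p = 0.00324), while Rrm1 and Rrm2 fell. The dimmer Rrm2b probe set did not pass (0.11 ± 0.077, limma adjusted p = 0.275).

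In TKO lenses, 3 of 8 members fell at P0 and 0 rose, where 14.6% of all genes passed and 8.77% fell. Rrm2 averaged 7.90 ± 0.28 in TKO P0 and 8.72 ± 0.58 in TKO E17.5 lenses and fell by 0.82 ± 0.25 (limma adjusted p = 0.0491). Tk1 averaged 6.77 ± 0.24 in TKO P0 and 7.41 ± 0.28 in TKO E17.5 lenses and fell by 0.64 ± 0.15 (limma adjusted p = 0.0227). Dut averaged 7.44 ± 0.32 in TKO P0 and 8.07 ± 0.29 in TKO E17.5 lenses and fell by 0.64 ± 0.17 (limma adjusted p = 0.0356). For these 3 genes the TKO stages overlapped, and none of the 3 calls held without TKO P0 replicate 17, 18 or 19 or TKO E17.5 replicate 25, or without TKO E17.5 replicates 25 and 26 together. The Rrm2 call was lost under 12 of 21 alternatives, among them quantile scaling and averaged probe sets (limma adjusted p = 0.0636 and 0.0527). Those of Tk1 and Dut were each lost under 6 of 21, for Tk1 also with array weights (limma adjusted p = 0.0591).

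Rrm1 averaged 8.91 ± 0.16 in TKO P0 and 9.20 ± 0.33 in TKO E17.5 lenses and did not pass (-0.29 ± 0.15, limma adjusted p = 0.206). Shmt1 gave -0.23 ± 0.20, Dctpp1 0.06 ± 0.14 and Umps 0.17 ± 0.13, and none passed (limma adjusted p = 0.443, 0.780 and 0.385). Paics averaged 13.24 ± 0.092 in TKO P0 and 13.02 ± 0.069 in TKO E17.5 lenses, with no overlap between the stages in that direction, as for 4.73% of all genes, and did not pass (0.22 ± 0.074, limma adjusted p = 0.0695). The difference between the genotypes in these stage changes is the same quantity as the difference of effects given above, in which 0 of 8 passed. The stage and genotype comparisons share arrays, so their values are set side by side and not counted together.

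Setting TKO P0 beside control E17.5 lenses, as levels with no test, places the newborn knockouts on the embryonic scale. Rrm1 averaged 8.91 in TKO P0 and 8.66 in control E17.5 lenses, and Shmt1 6.02 in TKO P0 and 5.39 in control E17.5 lenses, with overlap. Rrm2 averaged 7.90 in TKO P0 and 8.50 in control E17.5 lenses, Tk1 6.77 in TKO P0 and 7.35 in control E17.5 lenses, and Dut 7.44 in TKO P0 and 7.91 in control E17.5 lenses, also with overlap. For Dctpp1, Paics and Umps every TKO P0 array was above every control E17.5 array, and for Tyms, dim throughout, every one was below. How many of all genes were so separated was not counted for this pair, so these separations are descriptions only. The members lay on both sides of the embryonic control level.

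The rest of nucleotide metabolism was read from lists of 74 genes, of which 67 were on the array and 62 were tested. At P0, 22 of the 62 rose, 9 fell and 31 did not pass, a median of 0.12, so that their share of rising genes was 35.5% against the 20.2% of all genes. Within de novo purine synthesis 4 of 11 rose and 0 fell. Prps2, which makes the ribose donor of the pathway, differed by 0.78 ± 0.12, Gmps, the GMP synthetase, by 0.48 ± 0.078 and Adss, which takes IMP towards AMP, by 0.40 ± 0.076 (limma adjusted p = 0.000761, 0.00109 and 0.00261). Of the pyrimidine list, Ctps2, a CTP synthase, rose (0.31 ± 0.075, limma adjusted p = 0.00765), while Cad, the entry enzyme (-0.17 ± 0.091), and Ctps (0.10 ± 0.086) did not pass.

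The folate list went both ways at P0, with 5 of 12 higher and 4 lower. Mthfd1, a cytosolic enzyme of folate interconversion, rose by 0.47 ± 0.073 and Aldh1l2 by 0.45 ± 0.093, while Ggh, a folate hydrolase, fell by 0.42 ± 0.062 (limma adjusted p = 0.000837, 0.00341 and 0.000715). Of the salvage list 3 of 10 rose and 1 fell. Adk, adenosine kinase, averaged 9.44 ± 0.31 in TKO P0 and 10.3 ± 0.10 in control P0 lenses and fell by 0.87 ± 0.13 (limma adjusted p = 0.000674), while Hprt and Aprt, the purine base salvage enzymes, rose by 0.36 ± 0.069 and 0.26 ± 0.079 (limma adjusted p = 0.00240 and 0.0217).

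Of the nucleotide kinases 4 of 10 rose and 2 fell at P0, with Nme1 at 0.44 ± 0.064, Nme2 at 0.44 ± 0.081 and Dtymk, thymidylate kinase, at 0.29 ± 0.088 (limma adjusted p = 0.000636, 0.00216 and 0.0242). Of the breakdown and pool-cleaning list, 5 of 14 rose and 1 fell. Itpa (0.55 ± 0.060) and Nudt1 (0.49 ± 0.086), which like Dctpp1 hydrolyse unwanted nucleotides, and Ada, adenosine deaminase (0.97 ± 0.24), led it (limma adjusted p = 0.000175, 0.00164 and 0.00853). At E17.5, 3 of the 62 rose and 1 fell. The risers were Adss, Gmps and Itpa and the gene that fell was Adk (limma adjusted p = 0.0272, 0.0495, 0.0441 and 0.0326).

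**Figure D4:**
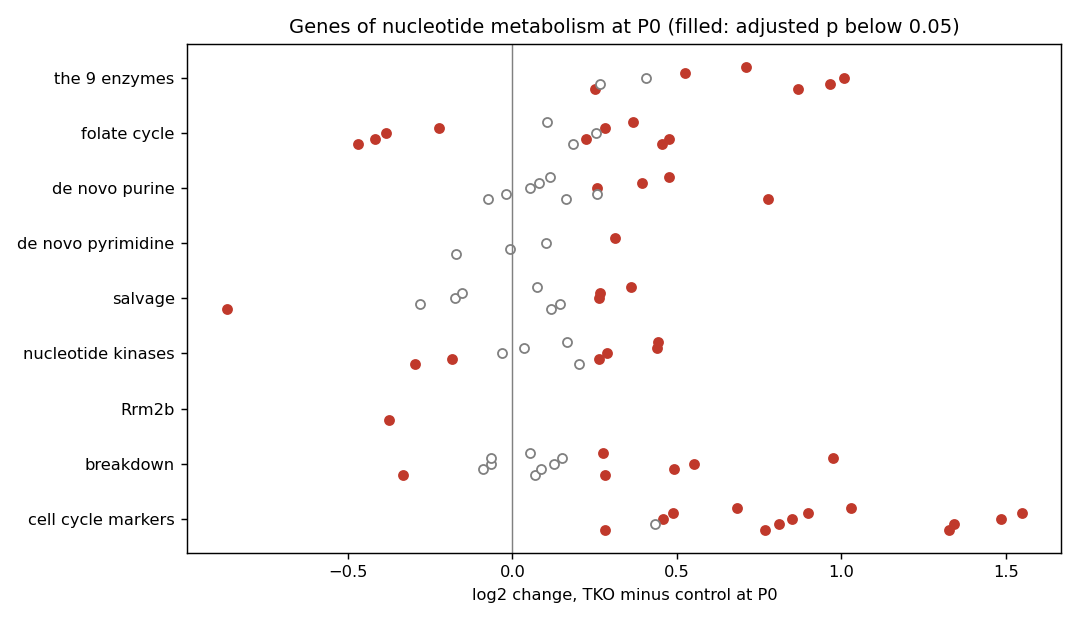
Log2 change, TKO minus control at P0, of each tested gene (1 point per gene) among the 9 enzymes, the other lists of nucleotide metabolism and a list of cell cycle markers, filled where the limma adjusted p was below 0.05. The 8 tested of the 9 enzymes span 0.25 to 1.01, the folate and salvage lists hold points on both sides of 0, and Adk at -0.87 is the lowest.

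In control lenses 41 of the 62 fell at P0, where 24.9% of all genes fell, and 1, Rrm2b, rose. In TKO lenses 10 of the 62 fell and 1 rose, where 8.77% of all genes fell. A list of 14 cell cycle markers, genes of replication and mitosis, moved alongside the members: at P0 13 of 14 rose in TKO lenses (median 0.83), where 20.2% of all genes rose, at E17.5 2 of 14 rose (median 0.50), where 1.59% did, and in control lenses all 14 fell at birth, where 24.9% did. The cell cycle list averaged 7.64 to 8.0 in TKO P0 and 6.78 to 7.14 in control P0 lenses. Its part in the members' values was not tested.

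The members did not vary as a block. Across the 20 arrays, which share groups and stages, Pearson's r with the mean of the members was 0.98 for Rrm1, 0.91 for Shmt1, 0.90 for Rrm2, 0.84 for Tk1, 0.78 for Dut, 0.75 for Dctpp1, 0.69 for Umps and 0.14 for Paics. That mean was taken over the 8 tested members and so contains each of them, which is not so for the outside genes below. The r of members and of outside genes are therefore not like measures. Pairs of members ranged from an r of -0.37 (Dut with Paics) to 0.92 (Rrm2 with Dut). After removing group means the r with the members' mean was 0.91 for Rrm1, 0.90 for Shmt1 and 0.84 for Rrm2, against 0.07 for Paics. Among genes outside the nucleotide lists, those most like the members' mean over the 20 arrays were Dnajc9 (r = 0.98), Cks1b (0.97), Cdk1 (0.97), Dtl (0.97) and Gmnn (0.97). Dnajc9 averaged 8.43 in TKO P0, 7.29 in control P0, 8.76 in TKO E17.5 and 8.23 in control E17.5 lenses.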

How the data were processed

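Log2 expression values of 45101 probe sets on 20 arrays were used as deposited by the authors. Their background correction and scaling were not given in the sources used here. Probe sets were named from the platform annotation, updated by Entrez ID: 34945 had 1 gene, 932 several and 9160 none, and only the first were used. The brightest probe set stood for a gene. Genes were kept when it exceeded the array median on at least 5 of 20 arrays, and limma 3.58.1 (R 4.3.3; lmFit, eBayes) was run on 10 arrays per pair of groups, on 20 for the difference of effects, two-sided, with Benjamini-Hochberg adjustment over 11859 genes. Simulated data were used to test the fit. Litters are not given, so p-values measure the spread between these mice, and the number of arrays limits precision.

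The text names all 9 members, up to 3 genes per pathway list by smallest adjusted p at P0, Rrm2b, and the 5 genes most like the members' mean. Members, lists and tests were chosen with earlier results of these data known. Alternatives were quantile or median scaling, the filter, the choice of probe set, array weights, a retina marker covariate, other priors and leaving out arrays.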

Additional observations from a re-analysis of the deposited data

Results flagged for a closer look

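Paics in a control embryo stood apart from its group. It read 12.70 in control E17.5 replicate 15, below the other 4 arrays of that group, which lay at 12.79 to 12.82, and its gap to them was more than 0.71 of the group's whole range, the 95% critical value of Dixon's test for 5 arrays. Of 36 groups looked at, this was the 1 found, where chance gives about 1 in 20. Without that array Paics differed between TKO and control E17.5 lenses by 0.22 and did not pass.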

How the results depend on the processing

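No paired analysis was possible because the replicate numbers in the titles differ between all groups. At P0 the number of members that passed, 6 of 8, was 5 to 7 under every alternative run (5 of 7 with the stricter filter, under which Shmt1 was not tested, and 6 of 9 with no filter), and 6 to 7 when arrays were left out in turn. At E17.5 (0 of 8) it was 1 with quantile scaling and with trended robust priors, 2 with the stricter filter (of 7 tested) and with probe sets averaged, 3 with array weights, 4 with every probe set tested and with all 20 arrays, and 0 to 4 when arrays were left out. For the difference of effects it was 0 to 1 when arrays were left out and 1 without TKO E17.5 replicates 25 and 26, a choice made after seeing the data. For the stage change in controls it was 6 to 7 when arrays were left out, and 8 of 9 with no filter, a setting that took in Tyms. In TKO lenses (3 of 8) it was 0 to 3 when arrays were left out, and 0 without replicates 25 and 26. Of 891 single-gene values under alternatives, 804 kept direction and side of the threshold, 36 lost the call, 32 gained it and 19 changed sign, none of them a call.

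At E17.5 Rrm2 was -0.044 with the retina covariate and -0.17 without replicates 25 and 26, where Tk1 was -0.0023 and Dut -0.032. When arrays were left out, Rrm2 ran from -0.0078 to 0.34 and Tk1 from -0.017 to 0.15. The difference of effects for Paics was -0.0062 with quantile scaling, -0.023 with centred medians and -0.025 with probe sets averaged, and ran from -0.021 to 0.033 when arrays were left out, as did Dut from -0.018 to 0.21 and Shmt1 from -0.038 to 0.26. Umps in controls was 0.0022 with probe sets averaged. Dctpp1 in TKO lenses was -0.0061 without replicates 25 and 26 and ran from -0.024 to 0.19 when arrays were left out. The cause was not tested.

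Counts over all genes moved more. At E17.5 (343) they were 611 with quantile scaling, 1537 with every probe set, 1541 with all 20 arrays, 713 with weights, 104 with the covariate, 43 without replicates 25 and 26, and 49 to 1129 when arrays were left out. At P0 (4700) they were 8060 with every probe set and 1376 with the covariate. For the difference of effects (21) they were 47, 0 with weights, 6 with the covariate, 146 without replicates 25 and 26, and 0 to 321 when arrays were left out. For the stage change in controls (4431) they were 7140 with every probe set and 2046 with all 20 arrays. In TKO lenses (1728) they were 2644 with no filter, 884 with the stricter one, 2757 with every probe set, 3940 with all 20 arrays, 68 without replicates 25 and 26, and 440 to 2716 when arrays were left out. Centring moved the split at P0 to 1882 higher and 2980 lower, against 2399 and 2301, and quantile scaling moved it at E17.5 to 213 and 398, against 188 and 155, and in controls to 1973 and 2407, against 1480 and 2951. In TKO lenses quantile scaling gave 707 higher and 725 lower and centring 467 and 1282, against 688 and 1040.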
